A study of Mus musculus with 4 samples.

Results

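Caspases and the proteins that switch them on or hold them back were described in hair cells and non-hair cells of the newborn mouse cochlea, with and without the aminoglycoside antibiotic gentamicin. The 8 genes were chosen by symbol: the initiator caspases Casp2, Casp8 and Casp9, the endoplasmic reticulum caspase Casp12, the executioner caspase Casp6, the apoptosome scaffold Apaf1, the caspase inhibitor Xiap, and Diablo, which relieves that inhibition. All 8 were among the 23420 genes listed and among the 16076 tested, and other executioner caspases were not used here. Cochleae were taken at postnatal day 1 from mice of the CD1 strain that carry Atoh1-GFP, a reporter in which hair cells fluoresce green. They were kept as explants overnight at 5% CO2 and 5% O2 with 100 U/ml of penicillin, and either left without drug or given 0.5 mM gentamicin for 3 h. After dissociation the cells were sorted into GFP positive hair cells and GFP negative non-hair cells, which gave 4 groups of 3 replicates: hair cell control, hair cell gentamicin, non-hair cell control and non-hair cell gentamicin. The reporter and the penicillin were common to all 4 groups. The non-hair cell fraction is everything in the tissue that did not fluoresce, so supporting cells, mesenchyme, nerve and vessel are measured together.

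Caspases are proteases made as inactive precursors. Initiator caspases are activated on scaffolds: caspase-9 on the apoptosome, which Apaf1 builds with cytochrome c released from mitochondria, caspase-8 beneath death receptors, and caspase-2 on the PIDDosome, a complex of Pidd1 and Cradd. Caspase-8 and caspase-9 cut and activate executioners, which cleave structural and nuclear proteins. Xiap binds and blocks caspase-9 and some, not all, executioners, and the mitochondrial protein Diablo (also called Smac) displaces Xiap when it reaches the cytosol. Aminoglycosides kill hair cells in part through the mitochondrial route, and most of this control acts on proteins, which transcript levels do not show.

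The 5 caspases are related enzymes that cut with a cysteine, and the 45 coding bases around its codon are shown for each. The sequences are from GRCm38 with GENCODE M21 gene models, 5′ to 3′ on the coding strand, with the cysteine codon in capitals.
Casp2: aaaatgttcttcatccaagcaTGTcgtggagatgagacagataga
Casp6: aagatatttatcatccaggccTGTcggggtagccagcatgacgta
Casp8: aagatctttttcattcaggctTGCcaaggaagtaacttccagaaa
Casp9: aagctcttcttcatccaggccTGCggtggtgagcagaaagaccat
Casp12: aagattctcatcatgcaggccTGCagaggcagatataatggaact
Casp2 and Casp6 used TGT for this cysteine, and Casp8, Casp9 and Casp12 used TGC. Between pairs of genes 23 to 30 of the 45 bases were identical, from 51.1% for Casp2 with Casp12 to 66.7% for Casp2 with Casp9 and for Casp6 with Casp9. The Casp8 stretch lies inside a single exon at chr1:58844598-58844642. The other stretches cross a splice junction, and with the intron between their exons they span chr6:42276755-42279790 in Casp2, chr3:129910681-129912144 in Casp6, chr4:141807232-141811552 in Casp9 and chr9:5353838-5354547 in Casp12, all on the plus strand.

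The values are normalized read numbers per gene (scores) with 1 added, so a gene without reads stands at 1. The replicates held 22395037 to 28146016 reads on genes, with a median of 25108737. Hair cell markers (Atoh1, Myo7a, Myo6, Gfi1 and Otof) summed to 10137 to 10580 in hair cell control replicates and to 195 to 233 in non-hair cell controls. Hair cell fractions also held transcripts of other cells: 20 markers of mesenchyme, endothelium, Schwann cells and macrophages summed to 409 to 729 in hair cell controls, 245 to 338 after gentamicin, and 5859 to 7294 in non-hair cell controls. In hair cell fractions 5 supporting cell markers went from sums of 999 to 1142 without drug to 477 to 883 with it, and the hair cell markers themselves to 8463 to 9480. In non-hair cell controls the supporting cell markers summed to 514 to 941, below the hair cell controls. Hair cell control replicate 2 stood apart from its group, at 729 against 409 and 432, and results that rest on it are also given without it. In non-hair cells after gentamicin 5 of 5 supporting cell and 5 of 5 neuron markers had negative fold changes. Their median log2 fold changes were −0.49 and −0.88, with 0 called. Medians there were 0.15 for mesenchyme, 0.27 for endothelium, with 1 marker called higher, −0.05 for Schwann cells and 0.04 for macrophages. The part of such shifts in non-hair cell responses was not tested. In sorted pools a smaller share of cells of a type and less RNA per cell cannot be told apart.

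**Figure D1:**
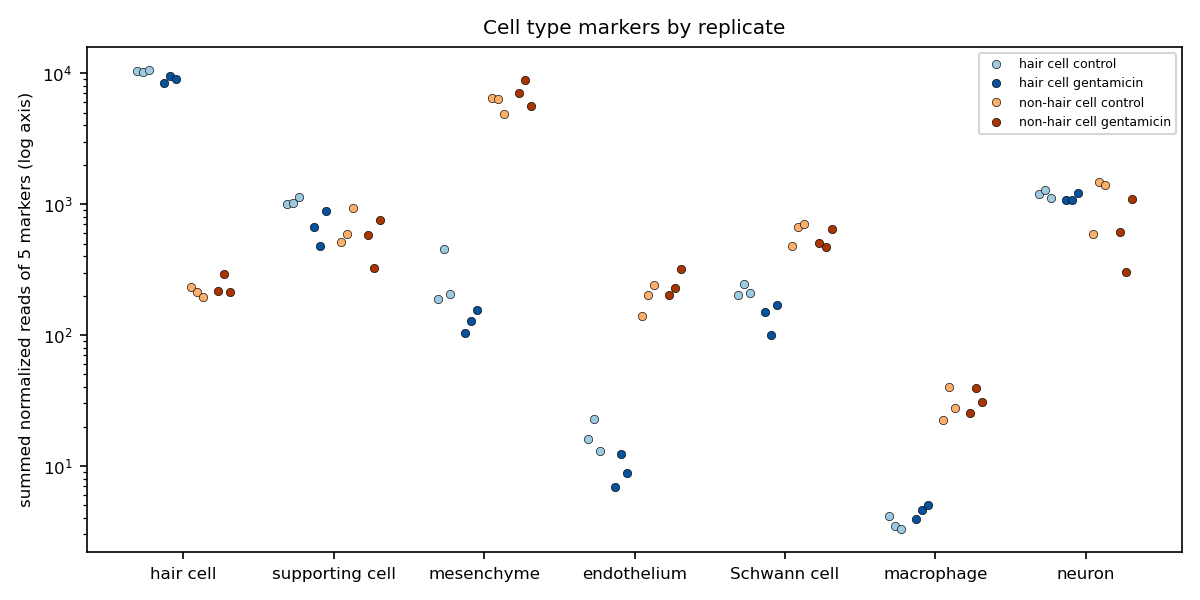
Summed normalized reads of 5 markers for each of 7 cell types (log axis), with 1 point per replicate coloured by group. Hair cell markers separate the sorted populations, and mesenchymal, endothelial and Schwann cell markers sit lower in gentamicin-treated than in control hair cells, with hair cell control replicate 2 the highest for mesenchyme at 456.

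Gentamicin lowered the transcripts of 3 of the 8 genes in hair cells, Casp2, Casp9 and Apaf1, and raised none. Calls were made in a limma fit of log2 scores over all 16076 genes, and needed a fold change over 1.2 and, before adjustment, a p under 0.01. Of all genes tested, 27.5% were called in hair cells in either direction and 14.8% were called lower. Of the members 7 had a negative fold change, and Xiap had a positive one. The median of the 8 log2 fold changes was −0.33, beside −0.09 over all tested genes. Scores over all genes totalled 1052260 to 1055810 in hair cell control replicates and 977975 to 999981 in treated ones. With replicates scaled to equal totals the hair cell median over all tested genes was −0.01. At an adjusted p under 0.05, without the fold threshold, Xiap and Diablo were added, which made 5 of 8 against 33.2% of all genes. Xiap went above 0.05 in some fits that left out a hair cell replicate, and Diablo in every such fit.

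Casp2, on chromosome 6 at chr6:42264985-42282508, had the largest fall of the 8. Caspase-2 is an initiator that responds to DNA damage and other stress. Its score was 25.9, 27.6 and 30.1 in hair cell controls and 15.5, 13.1 and 17.9 after gentamicin, so every treated replicate lay below every control. The log2 fold change was −0.86 ± 0.13 (SE, limma adjusted p = 0.000642), a 1.81-fold fall with a 95% interval of −1.14 to −0.58, and 4.50% of tested genes had a lower value. The reads behind it numbered 1829 in the 3 controls and 1116 in the 3 treated replicates. In non-hair cells Casp2 stood at 46.6, 41.9 and 43.0 without drug and at 48.2, 54.9 and 41.8 with it. These groups overlapped, with a log2 fold change of 0.13 ± 0.13 (SE, limma adjusted p = 0.633). The difference between the responses was −0.99 ± 0.18 on the log2 scale (SE, limma adjusted p = 0.00711).

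Casp9, at chr4:141793612-141815976, encodes the initiator of the mitochondrial route. It measured 15.03, 17.9 and 16.6 in hair cell controls and 13.5, 11.6 and 13.2 after gentamicin. The groups did not overlap, and the log2 fold change was −0.37 ± 0.10 (SE, limma adjusted p = 0.0192). In non-hair cells the scores were 40.0, 44.9 and 38.1 against 44.0, 40.4 and 38.9, which overlapped and gave a log2 fold change of 0.01 ± 0.10 (SE, limma adjusted p = 0.986). The difference between populations in the Casp9 response, −0.37 ± 0.15, did not pass the test (SE, limma adjusted p = 0.113).

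Apaf1, at chr10:90989311-91082770 on the minus strand, encodes the scaffold on which caspase-9 is activated. Scores of 15.2, 19.0 and 14.7 in hair cell controls compared with 12.4, 11.3 and 10.3 after gentamicin, again without overlap. The log2 fold change was −0.52 ± 0.15 (SE, limma adjusted p = 0.0219), a 1.43-fold fall. Apaf1 was the only member whose non-hair cell value leaned the same way by a similar amount: 64.3, 67.7 and 47.0 without drug and 50.3, 45.5 and 41.9 with it. Those groups overlapped through non-hair cell control replicate 3, and the log2 fold change of −0.37 ± 0.15 was not called (SE, limma adjusted p = 0.248). Without that replicate it was −0.53 and was called, at a limma adjusted p of 0.116. The responses of the populations differed by −0.15 ± 0.21 (SE, limma adjusted p = 0.672), with a 95% interval of −0.62 to 0.31.

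The calls of Casp9 and Apaf1 rested on single replicates, and that of Casp2 did not. Casp2 was called in 6 of 6 fits that left out a hair cell replicate. Without hair cell control replicate 2, or without hair cell gentamicin replicate 2, Casp2 was the 1 member still called. Without the former, Casp9 was at −0.31 and Apaf1 at −0.40, with limma adjusted p of 0.0814 and 0.0941, and without the latter at −0.30 and −0.52, with 0.0748 and 0.0587. Casp9 also missed the call without hair cell control replicate 3, at −0.36, and Apaf1 without hair cell gentamicin replicate 3, at −0.45. With replicates scaled to equal totals neither was called, at −0.28 and −0.43. Casp2, Casp9 and Apaf1 were lower in hair cells than in non-hair cells, and so was the sum of the 20 markers of other cells. In hair cells after gentamicin 15 of these had negative fold changes, 6 were called lower and 0 higher, with a median log2 fold change of −0.48. The 5 macrophage markers among them leaned the other way, with 1 negative, 0 called and a median of 0.06. The supporting cell sum was higher in hair cell than in non-hair cell controls. Of its 5 markers 5 had negative fold changes in hair cells, and 1 was called lower. None of the 20 was without reads in all treated hair cell replicates. The part of these other cells in the falls of Casp2, Casp9 and Apaf1 was not tested.

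**Figure D2:**
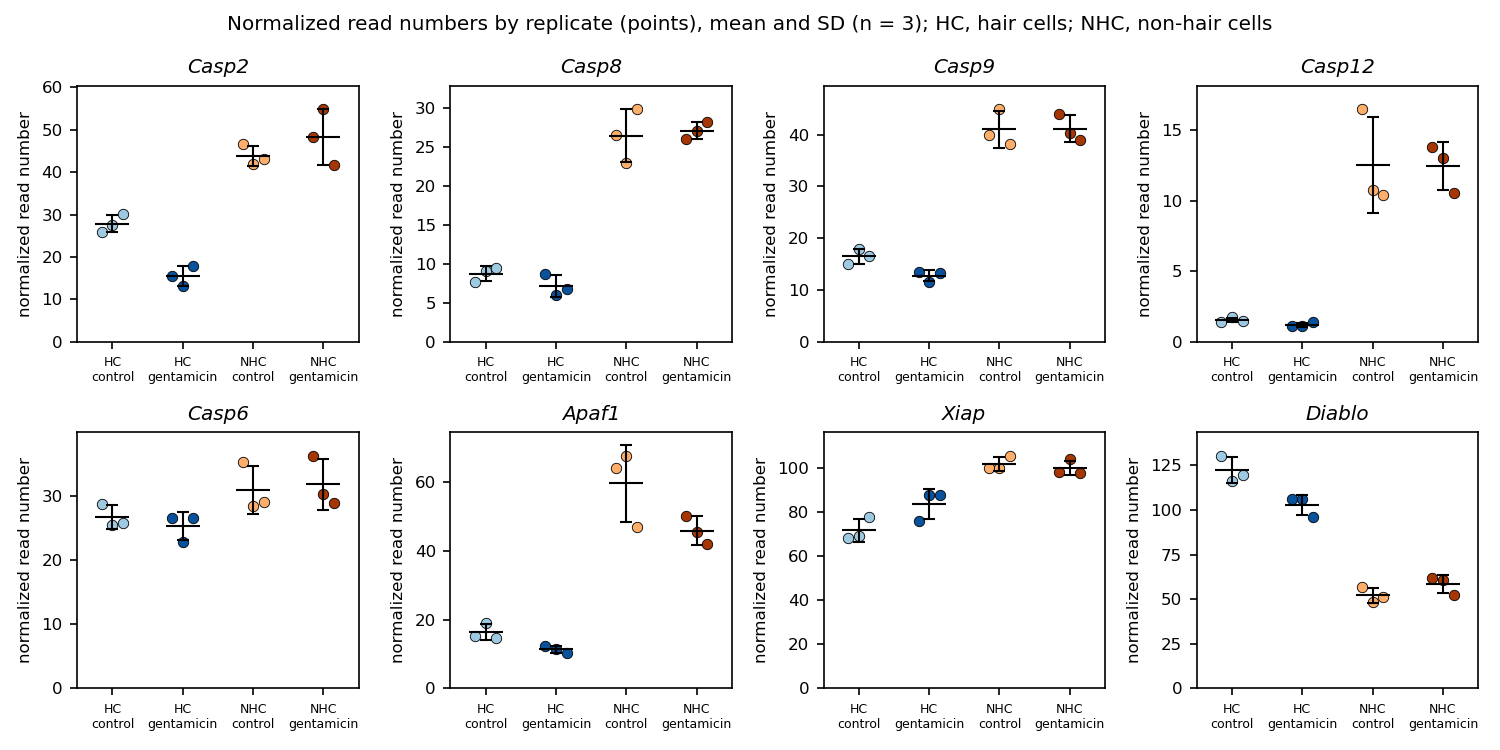
Normalized read numbers of the 8 genes, with 1 panel per gene and 1 point per replicate in each of the 4 groups (bars, mean and SD, n = 3). Treated hair cells lie wholly below control hair cells for Casp2, Casp9, Casp12, Apaf1 and Diablo, and no gene separates in non-hair cells.

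The 250 bases before the start are shown for the 3 genes called lower in hair cells, a set fixed by the thresholds of the call. They were taken from RefSeq, on GRCm38.p6, and read 5′ to 3′ on the gene's strand. All 8 genes matched the RefSeq table, with 10 promoters between them. Capitals mark matches to motifs searched on both strands.
Casp2, chr6:42264735-42264984, plus strand: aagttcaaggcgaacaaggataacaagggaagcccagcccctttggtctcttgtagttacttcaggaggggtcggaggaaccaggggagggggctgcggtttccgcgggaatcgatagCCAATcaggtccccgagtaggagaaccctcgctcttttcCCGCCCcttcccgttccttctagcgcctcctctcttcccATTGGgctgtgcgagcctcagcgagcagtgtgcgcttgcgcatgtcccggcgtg
Casp9, chr4:141793362-141793611, plus strand: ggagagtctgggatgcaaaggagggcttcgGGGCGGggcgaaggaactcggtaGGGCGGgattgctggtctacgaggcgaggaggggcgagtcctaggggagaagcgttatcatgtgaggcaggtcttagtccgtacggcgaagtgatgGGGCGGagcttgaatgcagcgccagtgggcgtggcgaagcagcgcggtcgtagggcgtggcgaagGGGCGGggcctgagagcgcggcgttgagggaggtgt
Apaf1, chr10:91082744-91082993, minus strand: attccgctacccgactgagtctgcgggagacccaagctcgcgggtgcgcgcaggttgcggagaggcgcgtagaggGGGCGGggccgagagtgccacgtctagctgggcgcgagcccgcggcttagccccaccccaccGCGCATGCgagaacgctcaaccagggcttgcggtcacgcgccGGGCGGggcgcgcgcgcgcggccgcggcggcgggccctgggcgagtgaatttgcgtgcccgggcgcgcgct
The Casp2 window held 1 GC box (GGGCGG) and 2 CCAAT boxes, the Casp9 window 4 GC boxes, and the Apaf1 window 2 GC boxes and 1 NRF1 octamer (GCGCATGC). Among 32851 promoters of the same length, 32.7% held the GC box, 33.8% CCAAT and 2.26% the NRF1 octamer. The TATA box (TATAAA, in 12.4% of all promoters), the AP-1 motif (TGANTCA, 6.75%), the CRE (TGACGTCA, 1.55%) and the E2F motif (TTTCGCGC, 0.256%) had no match in the windows of these 3 genes. GC content was 60.4% for Casp2, 66.0% for Casp9 and 75.6% for Apaf1, above the median of 52.4% over all promoters. Members not called shared these features in part. Diablo had 70.4% and Casp6 58.4%, each with 1 GC box. The Xiap windows had 57.6% and 46.4%, each with 1 GC box, and 39.2% without one. Casp8 at 39.6% and Casp12 at 39.2% had no GC box. CCAAT boxes were found in Diablo, Casp8 and Casp12, and the NRF1 octamer in no member that was not called.

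Casp8 and Casp12 were not called in hair cells. Casp8, at chr1:58795374-58847503, encodes the initiator that death receptors recruit. It stood at 7.63, 9.08 and 9.52 in hair cell controls and at 8.75, 6.06 and 6.79 after gentamicin. The groups overlapped, and the log2 fold change of −0.29 ± 0.15 did not pass (SE, limma adjusted p = 0.164). Casp12, at chr9:5345430-5373032, encodes a caspase associated with the endoplasmic reticulum. It was barely detected in hair cells, with 10, 17 and 11 reads in controls and 3, 3 and 11 after gentamicin. As scores these were 1.43, 1.73 and 1.51 against 1.12, 1.13 and 1.39, which did not overlap, and the log2 fold change was −0.36 ± 0.19 (SE, limma adjusted p = 0.165). The added 1 compresses such low values: with 0.1 in its place the fold change was −1.14 and was called, at a limma adjusted p of 0.0212, so its size could not be set at this depth. In non-hair cells Casp8 (26.6, 23.0 and 29.9 against 26.1, 27.1 and 28.2) and Casp12 (16.5, 10.7 and 10.4 against 13.8, 13.0 and 10.5) overlapped between treatments. Both are mainly non-hair cell transcripts here, and the fall of other cells' markers stands beside their hair cell values too, where its part was not tested.

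Casp6, the executioner of the set, at chr3:129901425-129914103, measured 28.8, 25.5 and 25.7 in hair cell controls and 26.6, 22.8 and 26.6 after gentamicin. The groups overlapped, with a log2 fold change of −0.08 ± 0.12 (SE, limma adjusted p = 0.648) and a 95% interval of −0.34 to 0.18. A change of the size seen for Casp2 lies outside that interval. In non-hair cells it was 35.3, 28.5 and 29.1 without drug and 36.3, 30.3 and 28.9 with it, also overlapping. The log2 ratio of Casp2 to Casp6, in which the scaling of a replicate nearly cancels, was −0.16, 0.12 and 0.24 in hair cell controls and −0.82, −0.85 and −0.60 after gentamicin. These groups did not overlap and differed by −0.82 (exact two-sided permutation p = 0.10, the smallest that 3 against 3 allows). In non-hair cells the ratio differed by 0.09, with overlap (exact permutation p = 0.80).

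Xiap, at chrX:42059679-42109656, encodes the inhibitor, and was the member with a positive hair cell value. It measured 68.1, 69.1 and 77.5 in hair cell controls and 75.9, 87.6 and 87.8 after gentamicin. The groups overlapped by 1 replicate on each side, and the log2 fold change was 0.23 ± 0.07 (SE, limma adjusted p = 0.0378), a 1.17-fold difference. It missed both thresholds of the call, with an unadjusted p of 0.0113. In non-hair cells it was 99.8, 99.8 and 105 against 98.1, 104 and 97.8, a log2 fold change of −0.03 ± 0.07 (SE, limma adjusted p = 0.897). The populations' Xiap responses differed by 0.25 ± 0.11, which did not pass (SE, limma adjusted p = 0.136). With replicates scaled to equal totals Xiap was called higher in hair cells, at 0.32 (limma adjusted p = 0.00621). It was also called higher in 2 of 6 fits that left out a hair cell replicate, at 0.28 without control replicate 3 and at 0.30 without gentamicin replicate 1. In the other such fits its limma adjusted p was 0.110 to 0.126. The scaling to equal totals also turned the balance over all genes, from 2037 higher and 2381 lower to 2774 higher and 1591 lower.

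Diablo, at chr5:123509765-123524176 on the minus strand, had the highest hair cell score of the 8. It was 130, 116 and 120 in hair cell controls and 106, 106 and 96.3 after gentamicin, with no overlap. The log2 fold change was −0.25 ± 0.09 (SE, limma adjusted p = 0.0434), a 1.19-fold difference. It missed both thresholds of the call, with an unadjusted p of 0.0137. In the fits that left out 1 hair cell replicate, Diablo had a limma adjusted p of 0.0639 to 0.147. With equal totals Diablo was at 0.178, and in a fit of the 2 hair cell groups alone at 0.0231 (limma adjusted p). In non-hair cells it was 56.7, 48.3 and 51.4 against 61.6, 60.9 and 52.6, a log2 fold change of 0.16 ± 0.09 with overlap (SE, limma adjusted p = 0.351). The difference between these responses passed at −0.41 ± 0.12 (SE, limma adjusted p = 0.0447), but it was lost in 10 of 12 fits that left out a replicate, those without any 1 of the 6 hair cell replicates among them.

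The Diablo values are uncertain because 21.5% of its exon bases overlap exons of B3gnt4 on the opposite strand, and 19.3% overlap those of Gm49027 on its own strand. No strand was stated for the counting, so reads of Diablo and B3gnt4 cannot be told apart in the shared bases. B3gnt4, an acetylglucosaminyltransferase gene, scored 111 to 123 in hair cell controls and 2.67 to 2.95 in non-hair cell controls. In scores, control hair cells exceeded control non-hair cells by 70.1 for Diablo and by 113 for B3gnt4, and treated hair cell means were below control means by 19.4 for Diablo and by 20.2 for B3gnt4. The B3gnt4 log2 fold change in hair cells, −0.28 ± 0.12, did not pass (SE, limma adjusted p = 0.0809). The part of B3gnt4 reads in either Diablo difference was not tested. Of the other members, Casp9 shared 1.81% of its exon bases with Cela2a and Ctrc, which stood at 1.05 or less in every replicate.

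The log2 ratio of Xiap to Diablo, inhibitor to antagonist, was −0.95, −0.76 and −0.64 in hair cell controls and −0.49, −0.28 and −0.13 after gentamicin. These groups did not overlap and differed by 0.48 (exact two-sided permutation p = 0.10, the smallest possible). In non-hair cells the ratio went from 0.83, 1.06 and 1.05 to 0.68, 0.78 and 0.91, with overlap, a difference of −0.19 (exact permutation p = 0.20). The ratio of Apaf1 to Casp9, scaffold to enzyme, overlapped between treatments in hair cells, with a log2 difference of −0.16 (exact permutation p = 0.30). In non-hair cells it went from 0.70, 0.60 and 0.31 to 0.20, 0.18 and 0.11 without overlap, a difference of −0.38 (exact permutation p = 0.10). The 3 ratios were chosen after the values were seen, and the Xiap to Diablo ratio carries the uncertainty of the Diablo counts.

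**Figure D3:**
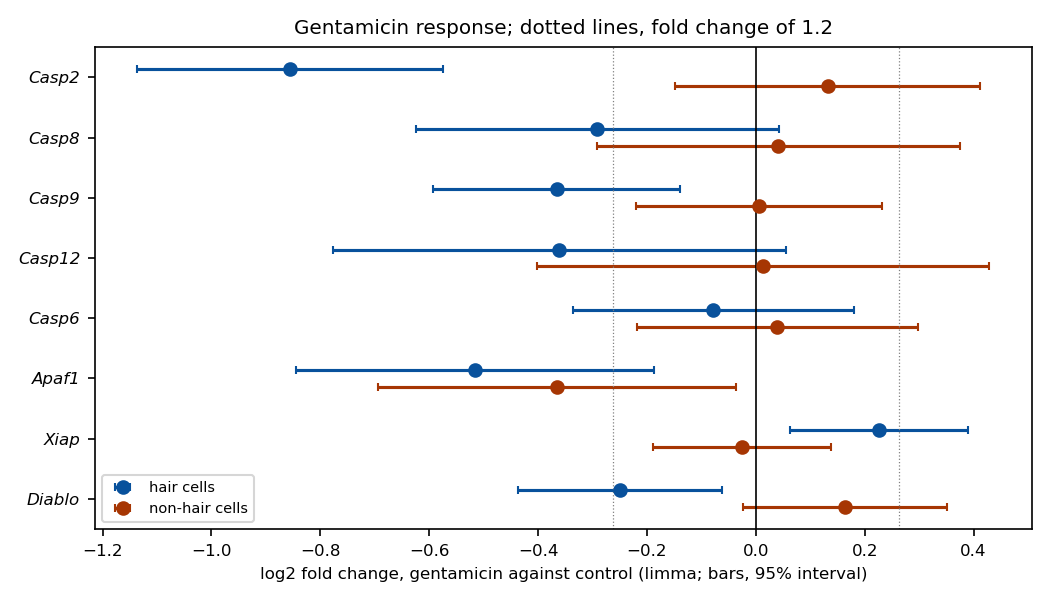
Log2 fold change of gentamicin against control for each gene in hair cells and non-hair cells (points, limma estimate; bars, 95% interval; dotted lines, a fold change of 1.2). In hair cells the intervals of Casp2, Casp9, Apaf1 and Diablo lie below 0 and that of Xiap above 0, and in non-hair cells only that of Apaf1 excludes 0.

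In non-hair cells 0 of the 8 genes were called, against 5.44% of all genes, and 1 of 8, Apaf1, had an unadjusted p under 0.05. At an adjusted p under 0.05, 0.342% of all genes and 0 members passed by limma. The median of the members was 0.03, beside −0.01 over all tested genes. Replicates with and without gentamicin did not overlap for 5 of 8 members in hair cells (Casp2, Casp9, Casp12, Apaf1 and Diablo), against 54.8% of all genes, and for 0 of 8 in non-hair cells, against 17.7%. The 5 of 8 in hair cells is therefore near the share of all genes. The response differed between the populations for 2 of 8, Casp2 and Diablo, against 13.4% of all genes at an adjusted p under 0.05, and the median difference was −0.35, beside −0.07 over all genes.

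Without drug, 6 of the 8 genes were lower in hair cells than in non-hair cells, against 42.2% of all genes, and 1, Diablo, was higher, against 31.9%. Casp12 differed most, from 1.56 ± 0.15 in hair cells to 12.6 ± 3.4 in non-hair cells (SD, n = 3), with 38 reads over the 3 hair cell controls and 865 over the 3 non-hair cell controls. The log2 difference of −2.98 ± 0.19 (SE, limma adjusted p = 6.35e-08) understates it because of the added 1. Apaf1 (−1.86 ± 0.15), Casp8 (−1.60 ± 0.15) and Casp9 (−1.31 ± 0.10) followed, so that scaffold and enzyme of the apoptosome were 3.64-fold and 2.48-fold lower in hair cells. Casp2 (−0.65 ± 0.13) and Xiap (−0.51 ± 0.07) differed less, and each of these 5 passed in limma, with adjusted p from 3.51e-07 to 0.000639. Diablo was 2.35-fold higher in hair cells, at 1.23 ± 0.09 (SE, limma adjusted p = 1.28e-07), with the overlap with B3gnt4 given above.

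Casp6 did not pass the comparison of populations, at −0.21 ± 0.12 on the log2 scale (SE, limma adjusted p = 0.128). With the replicate number of the table columns as a block Casp6 passed, at a limma adjusted p of 0.0459. The median of the 8 differences was −0.98, beside −0.12 over all genes.

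Levels of different genes were compared as scores, less the added 1, per kilobase of the longest protein-coding transcript. In control hair cells Diablo was highest at 46.9 ± 2.8 per kb, followed by Casp6 at 17.7 ± 1.3, Xiap at 10.3 ± 0.8, Casp2 at 7.62 ± 0.60 and Casp9 at 3.98 ± 0.37 (SD, n = 3). Casp8 at 3.00 ± 0.38 and Apaf1 at 2.33 ± 0.35 overlapped, while every other pair of neighbours in this order was separate over the replicates. Casp12 was last at 0.210 ± 0.058 per kb. In treated hair cells the order of the means on this scale was the same, with Casp2 at 4.11 ± 0.68 per kb, just above Casp9 at 3.03 ± 0.26. In control non-hair cells Casp6, at 20.6 ± 2.6 per kb, and Diablo, at 19.8 ± 1.6, overlapped, as did Casp9, Casp8 and Apaf1 between 8.92 and 10.3 per kb. The order depends on which transcript is used: over all annotated exons of a gene Xiap, not Casp6, came after Diablo in control hair cells and first in control non-hair cells. On that length Casp2 moved from rank 4 in control hair cells to rank 6 in treated ones, below Casp9 and Casp8. The treated levels were close, with overlapping SDs: 2.06 ± 0.34 per kb for Casp2, 2.14 ± 0.48 for Casp8 and 2.27 ± 0.20 for Casp9 (SD, n = 3).

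**Figure D4:**
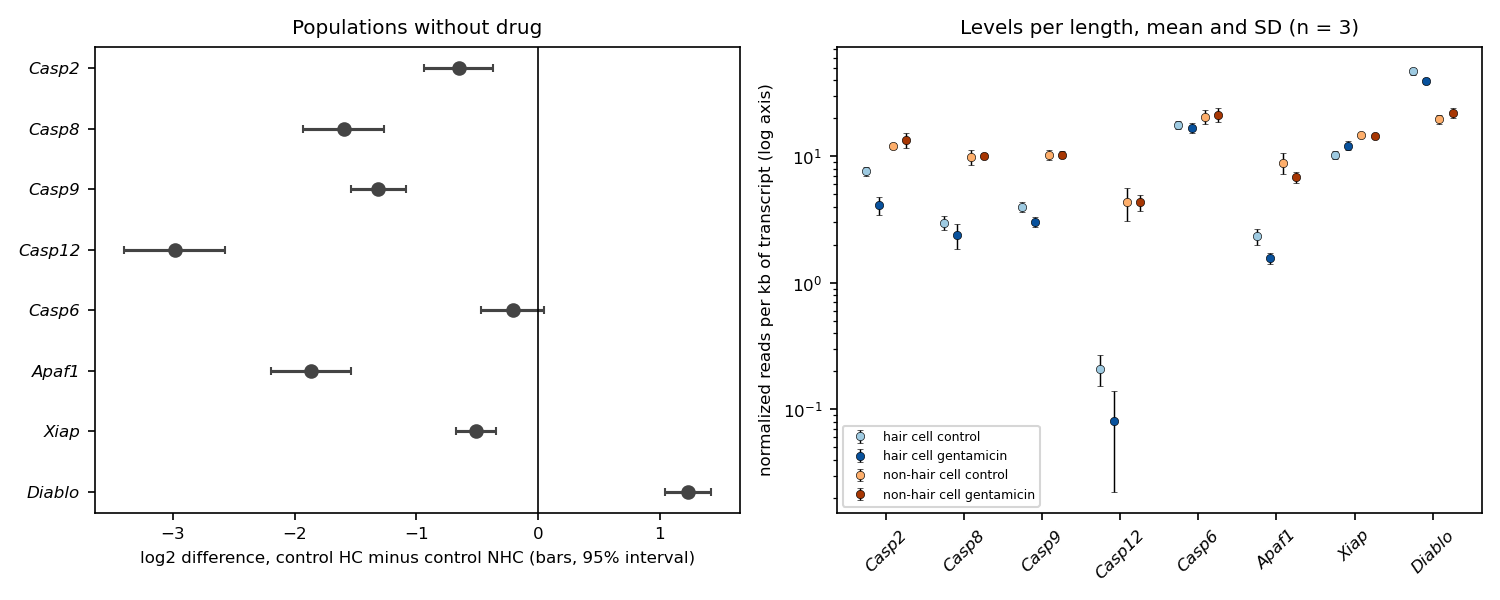
Left, log2 difference of each gene in hair cells minus non-hair cells, both without drug (points, limma estimate; bars, 95% interval), negative for all but Diablo. Right, normalized reads per kilobase of transcript in the 4 groups (log axis; points, mean; bars, SD, n = 3), from 0.0807 for Casp12 in treated hair cells to 46.9 for Diablo in control hair cells.

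The wider pathway was followed in 33 genes of 5 lists, all of which were in the tables and 31 of which were tested; Casp1 and Casp14 had too few reads. In hair cells 3 of the 31 were called higher and 2 lower, against 27.5% of all genes called in either direction, and in non-hair cells 1 was called higher, against 5.44%. Their median log2 fold change was −0.08 in hair cells and 0.01 in non-hair cells, close to those of all genes. In the death receptor arm 1 of 8 rose and 1 fell in hair cells. Traf2, an adaptor below tumour necrosis factor receptors, rose from 23.8, 22.7 and 24.3 to 30.7, 35.2 and 31.4, a log2 fold change of 0.46 ± 0.09 (SE, limma adjusted p = 0.00399). Tnfrsf10b, the mouse TRAIL death receptor, fell from 24.8, 24.1 and 25.8 to 18.7, 19.2 and 14.7, at −0.52 ± 0.10 (SE, limma adjusted p = 0.00347). Tnfrsf10b was also lower in control hair cells than in control non-hair cells, by −0.50 on the log2 scale, and the part of other cells in its fall was not tested. Neither gene's hair cell groups overlapped, and in non-hair cells the log2 fold changes were 0.05 and 0.04.

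The list for the apoptosome and PIDDosome held 8 genes: Cycs, Apip, Aven, Pidd1, Cradd, Aifm1, Endog and Htra2. Aifm1, Endog and Htra2 encode mitochondrial proteins that are not components of either complex. Of the 8 listed, 1 was called in hair cells, Pidd1, listed under its older symbol Lrdd. This activator of caspase-2 measured 5.26, 5.53 and 5.10 in hair cell controls and 7.64, 7.82 and 7.52 after gentamicin. It rose by 0.53 ± 0.15 on the log2 scale (SE, limma adjusted p = 0.0185), without overlap, while Casp2 fell. The call held in 2 of 6 fits that left out a hair cell replicate, being lost without control replicate 1 or 3 or gentamicin replicate 1 or 2, at log2 fold changes of 0.51 to 0.56 over the 6 fits. In non-hair cells Pidd1 gave 10.01, 9.002 and 7.49 against 7.99, 10.8 and 7.89, which overlapped, and the responses did not pass as different (limma adjusted p = 0.116). Aven, which binds Apaf1 and restrains the apoptosome, was the gene called in non-hair cells, from 7.70, 5.91 and 9.73 to 12.6, 13.3 and 11.2. Its log2 fold change of 0.69 ± 0.18 had an adjusted p of 0.104 by limma, and the call was lost without non-hair cell control replicate 2, at 0.51, and in a fit of the 2 non-hair cell groups alone, at a limma adjusted p of 0.397. In hair cells Aven was at 0.35 ± 0.18 (SE, limma adjusted p = 0.153).

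None of the 6 genes of the inhibitor of apoptosis list, which holds relatives of Xiap and the Xiap antagonist Xaf1, was called in either population, where 27.5% and 5.44% of all genes were called. Of 8 caspase substrates 1 rose and 1 fell in hair cells. Rock1, a kinase that drives membrane blebbing once cleaved, rose from 56.5, 57.1 and 63.8 to 73.8, 83.4 and 72.2, at 0.37 ± 0.08 (SE, limma adjusted p = 0.00374). Sptan1, the cytoskeletal spectrin, fell from 1091, 1088 and 991 to 764, 818 and 798, at −0.41 ± 0.11 (SE, limma adjusted p = 0.0179). Both sets of hair cell replicates were separate, and in non-hair cells the values were −0.02 and −0.07. The Sptan1 call was lost without hair cell control replicate 1 or 2 or gentamicin replicate 1 or 3, at −0.42 to −0.39, and with equal totals, at −0.31. Without drug the 8 death receptor genes were lower in hair cells, all 8 of 8 at an adjusted p under 0.05 by limma, against 42.2% of all genes. Of the 8 genes listed with the apoptosome and PIDDosome 5 were higher there (Cycs, Apip, Aven, Cradd and Aifm1), against 31.9% of all genes. In that list 1 gene, Pidd1, was lower. The difference between these lists was not tested.

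**Figure D5:**
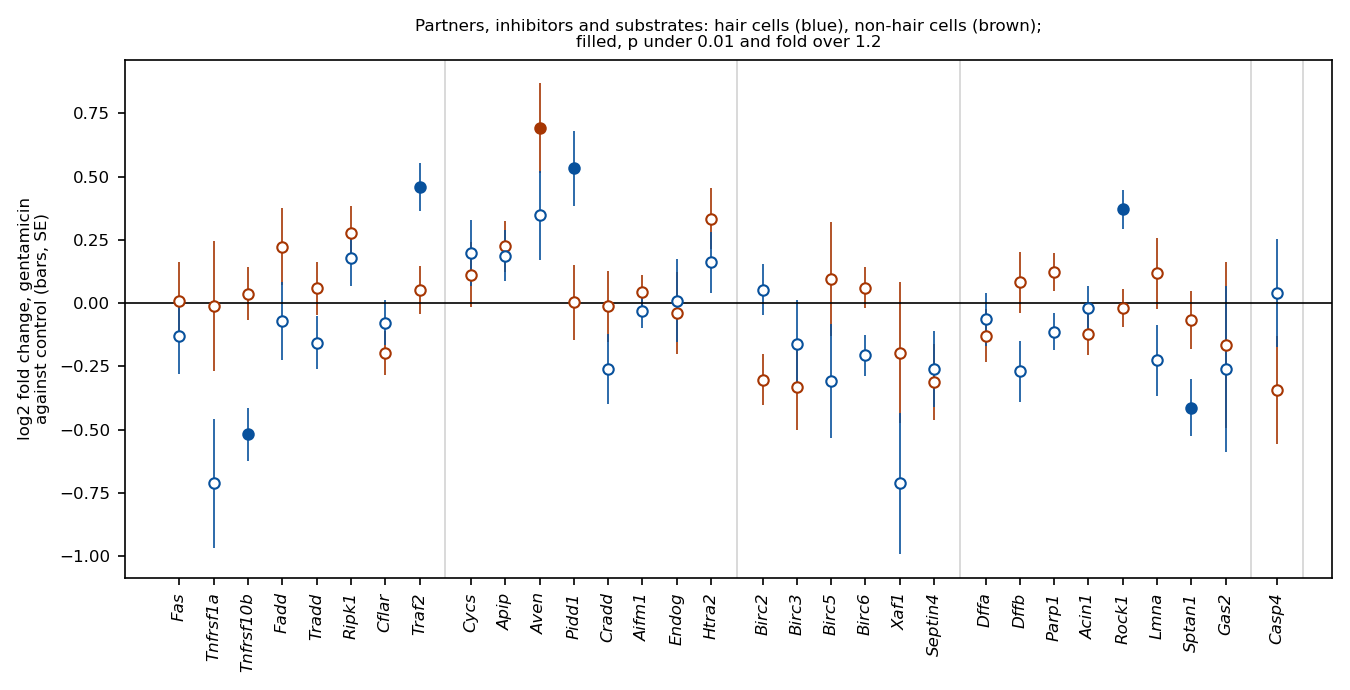
Log2 fold change of gentamicin against control for the 31 tested genes of 5 lists, in hair cells (blue) and non-hair cells (brown), with bars for the SE and filled points for genes called at p under 0.01 and a fold change over 1.2. The filled points are Traf2, Pidd1 and Rock1 above 0 and Tnfrsf10b and Sptan1 below 0 in hair cells, and Aven above 0 in non-hair cells.

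For each member the tested gene whose log2 scores ran most like it over the 12 replicates was found, as a description, since the replicates share the difference between populations. Pearson's r was 0.994 for Casp2 with Zfp280b, 0.995 for Casp8 with Rai14, 0.997 for Casp9 with Adcy3, 0.999 for Casp12 with B2m and 0.997 for Apaf1 with Pmepa1. Diablo ran with Ptk2 at 0.996, Xiap with Mad2l1bp at 0.971 and Casp6 with A830052D11Rik at 0.932.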

How the data were processed

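Messenger RNA from sorted cells was sequenced as 50 bp single-end reads. Per the study's methods, the authors trimmed reads at a quality of 25 and aligned them with TopHat2 to mm10 in Partek Flow. The deposited tables hold a score per gene for 3 replicates in each of 4 groups: read numbers normalized by the authors with 1 added. The methods call these RPKM, but the values are proportional to reads with no division by gene length, so they were treated as a score. Of low values (up to 20 reads) 82.9% to 83.9% were whole reads within 0.1, and read numbers given in the text are those recovered and rounded; no count model was used.

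Log2 scores of 16076 genes with at least 100 reads over all replicates were fitted in limma 3.58.1 (R 4.3.3) with 4 groups, a variance trend and Benjamini-Hochberg adjustment. Gentamicin responses were called at p under 0.01 with a fold change over 1.2, the study's thresholds, and differences between responses or populations at adjusted p under 0.05. All tests were two-sided. Single values and ratios were compared by exact permutation (scipy 1.17.1). Its smallest p for 3 against 3 is 0.10, and Casp2, Casp9 and Apaf1 in hair cells were each at 0.10. The study calls its replicates biological, and the labels do not say which animals or cultures each came from. The p-values set a difference against the spread between these replicates. The limma fit took 1 spread per gene over all 4 groups. Hair cell SEs and limma p-values therefore include non-hair cell spread, and the reverse. In fits of 2 groups alone, 5061 genes were called in hair cells, beside 4418 in the main fit. In non-hair cells 383 were called alone, beside 875. The precision is limited by 3 replicates per group.

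Deviations from the group mean were correlated between replicates of the same number in the table columns. Between control groups the correlations were 0.216, 0.316 and 0.200, and between gentamicin groups 0.377, −0.0386 and −0.0179. Between treatments they were 0.0369, 0.0523 and 0.0370 in hair cells and 0.208, −0.232 and 0.683 in non-hair cells. Replicates of different number were not compared, so whether the numbers mark pairs was not tested. Members, gene lists and markers were chosen with earlier results of these data known. Named genes were the 8 members, every list gene called in either population, and for each member its most similar gene. B3gnt4, Gm49027, Cela2a and Ctrc were named after the overlaps were seen. Positions are from GENCODE M21 on GRCm38, the build called mm10.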

Additional observations from a re-analysis of the deposited data

Results flagged for a closer look

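The response to gentamicin differed between hair cells and non-hair cells, by the interaction test in limma, for 4 of the genes described. Casp2 differed by −0.99 on the log2 scale (limma adjusted p = 0.00711), lower in hair cells and not called in non-hair cells, and it passed in 12 of 12 fits that left out a replicate. Diablo differed by −0.41 (limma adjusted p = 0.0447), with the reads it may share with B3gnt4, and passed in 2 of 12 such fits. The death receptor gene Tnfrsf10b differed by −0.55 (limma adjusted p = 0.0309) and the kinase gene Rock1 by 0.39 (limma adjusted p = 0.0349). Each of these passed in 4 of 12 such fits, with values of −0.63 to −0.43 for Tnfrsf10b and 0.33 to 0.45 for Rock1.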

How the results depend on the processing

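Casp2 was called in hair cells under every alternative run. The count of 3 members called in hair cells became 1 (Casp2) with voom weights on recovered reads, an alternative chosen after seeing the data, and 5 at an adjusted p under 0.05 alone, and it ranged from 1 to 4 with a replicate left out. Casp9 lost its call with equal totals (−0.28), with 2 groups alone (−0.37) and with voom (−0.39), and Apaf1 with equal totals (−0.43) and voom (−0.57). The 2 members with a different response between populations became 1 (Casp2) with equal totals, with no read filter and with voom, and ranged from 1 to 2 with a replicate left out. In non-hair cells the count of 0 became 1 (Apaf1) with the replicate number as a block, where its limma adjusted p was 0.162, and ranged from 0 to 1 with a replicate left out. The block also took the members that differed between control populations from 7 to 8 (Casp6) and ended the call of the Rock1 interaction (limma adjusted p = 0.0501). It changed no other call of a member and ended no other gentamicin or interaction call of a named list gene. Calls that list genes might gain were not examined. Casp6 in hair cells turned to 0.016 with equal totals. With a replicate left out, values near 0 changed sign: Apaf1's interaction (−0.25 to 0.012) and, in non-hair cells, Casp6 (−0.059 to 0.14), Casp8 (−0.055 to 0.13), Casp9 (−0.045 to 0.072), Casp12 (−0.10 to 0.23) and Xiap (−0.054 to 0.00093). The cause of these changes was not tested. Over all alternatives for single genes, 529 values kept direction and call, 52 lost the call, 7 gained one and 14 changed sign. Depth limits Casp12 in hair cells, at 38 and 17 reads per group of 3.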
